A study of Mus musculus with 6 samples.

Results

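Serpins are a family of folded protease inhibitors, and 9 of their genes, Serpinb9b, Serpinb9, Serpinb6a, Serpinb6b, Serpinb6c, Serpinb1a, Serpine2, Serpinf1 and Serpinh1, are described here in mouse embryonic stem (ES) cells that had lost Dicer. They were taken as a named list, and Serpinb9b was known to be higher after Dicer loss when the list was drawn up, so the values of the listed genes in this comparison are a description and carry no test. A probe set, the group of short probes that reads out a transcript on the array, was assigned to a gene where the platform annotation gave it that gene's symbol alone. By this rule 8 of the 9 genes had at least 1 probe set, 12 probe sets in all, among 18193 genes on the array, and Serpine2 (protease nexin 1) was not analysed here.

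RNA was profiled on 6 arrays, 3 from Dcr KO and 3 from Dcr WT ES cells, which the methods call biological replicates. All cells came from a Dicer flox/flox line, were kept on gelatin with LIF and were transfected with GFP 5 days before RNA was isolated. Dcr KO cells received Cre recombinase with GFP, which deletes the floxed Dicer alleles, and Dcr WT cells received GFP alone and kept Dicer. The Dcr KO cells were a polyclonal population, so cells that kept Dicer can contribute to their RNA, and a change in the number of cells that express a gene and a change per cell cannot be told apart. Nor can an effect of Cre itself and an effect of the deletion, since no array holds Cre without the deletion.

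Inhibitory serpins present an exposed loop as bait, and the protease that cuts it is trapped in a covalent complex. The clade B genes listed here lie close together on chromosome 13 in the mouse, while other clade B genes lie on chromosome 1. Clade B serpins act mainly inside cells, where they are best known for guarding cytotoxic lymphocytes and phagocytes against their own granule proteases. Other members of the fold have lost inhibition: Serpinf1 encodes PEDF, a secreted factor known for restraining blood vessel growth, and Serpinh1 encodes HSP47, the collagen chaperone of the endoplasmic reticulum.

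Dicer makes mature microRNAs (miRNAs), and ES cells hold many of the miR-295 cluster on chromosome 7, which pair with their targets through bases 2 to 8, the seed. Members of this cluster that carry AAGUGC at bases 2 to 7 are shown (RefSeq, GRCm38.p6), 5′ to 3′ with the seed in capitals, because they are Dicer products, made from precursors that Dicer cuts. The cluster also holds miR-292-3p, which the study lists with the same AAGUGC and which is named only here.
mmu-miR-291a-3p: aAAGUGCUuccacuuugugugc
mmu-miR-294-3p: aAAGUGCUucccuuuugugugu
mmu-miR-295-3p: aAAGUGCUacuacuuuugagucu
mmu-miR-290a-3p: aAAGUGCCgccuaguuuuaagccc
mmu-miR-291b-3p: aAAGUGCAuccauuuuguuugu
The first 3 share the whole seed AAGUGCU, and the other two differ from it only in the last seed base. Sites for these seeds in the serpin transcripts were not analysed here. The study's candidate targets of the cluster were TargetScan predictions that were also higher in its knockout cells, partly on these arrays. They include Serpini1 and an entry printed as Serpib9b, which appears to be Serpinb9b.

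Serpinb9 and Serpinb9b were the pair of serpins higher in Dcr KO cells and adjacent in the order of named protein-coding genes. The bases just before their annotated starts are therefore shown (RefSeq, GRCm38.p6, plus strand, 30 bases each, 5′ to 3′). Capitals mark bases matched between the promoters in their best local alignment.
Serpinb9b, chr13:33027384-33027413: cACCCAGTTTTTTtttcCCCAACCCtCACc
Serpinb9, chr13:33004511-33004540: GACCCAGTTTTTTCCCAACCCcCACtcaTC
Promoter windows, running from 250 bases before to 50 bases after the start, were found for 8 of the 9 serpin genes. Those of Serpinb9b and Serpinb9 matched over 114 aligned bases, 88 of them identical. The match next in alignment score among the listed genes, Serpine2 with Serpinb6b, covered 18 aligned bases with 16 identical. The longest other match, Serpine2 with Serpinb6c, covered 39 aligned bases with 30 identical. The 300-base window held 2 CpG dinucleotides in Serpinb9b, 5 in Serpinb9 and 3 in Serpinf1, against a median of 7 over 32851 RefSeq promoters, while Serpinb6b held 4, Serpinb6c 10, Serpinh1 16 and Serpine2 41. Serpinb6a has a pair of listed starts, with 25 and 5 CpG dinucleotides, so the counts did not separate the serpins that were higher from those that were not. The alignment and the CpG counts describe sequence only.

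The targeted gene was checked first. Dicer1 averaged 6.28 ± 0.34 in Dcr KO cells and 7.61 ± 0.40 in Dcr WT cells (log2 expression, SD, n = 3 each) and fell by 1.33 on the log2 scale (SE 0.23, limma adjusted p = 0.0134), and the groups did not overlap. Where its 2 probe sets lie relative to the deleted exons is not known here. The 8 ES cell markers fixed for this report, Pou5f1, Sox2 and Nanog among them, had a mean of 11.04 to 11.07 on the Dcr KO arrays and 10.79 to 11.04 on the Dcr WT arrays, and none passed the test. The marker lists of other cell types gave 2.34 to 2.37 in Dcr KO and 2.37 to 2.47 in Dcr WT for primitive endoderm, 7.51 to 7.55 and 7.13 to 7.49 for trophoblast (led by keratins that ES cells also express), 2.84 to 3.03 and 2.65 to 2.93 for fibroblasts, 1.84 to 1.97 and 1.87 to 2.04 for blood and immune cells, and 3.65 to 3.76 and 3.29 to 3.35 for neural cells. One neural marker, Tubb3, passed the test (difference 0.73, limma adjusted p = 0.0100), and the part of these shifts in the serpin values was not tested. The minimum for a test was a mean log2 expression of 4 over all 6 arrays, or 16 on the linear scale. The study set its own minimum on the wild type arrays alone. Across the 8782 genes that reached it, arrays correlated at 0.9865 to 0.9965 within Dcr KO, 0.9881 to 0.9917 within Dcr WT and 0.9624 to 0.9842 between the groups.

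Serpinb9b showed the widest difference of the listed genes. Serpinb9b is a mouse paralogue of Serpinb9 that is known as an inhibitor of granzyme M. Its single probe set (1422668_at) read 7.53, 7.80 and 9.25 in Dcr KO cells, against 5.43, 5.66 and 5.56 in Dcr WT cells (log2 expression). Every Dcr KO array stood above every Dcr WT array, and Dcr KO replicate 3 stood apart at the top. The means were 8.19 ± 0.93 in Dcr KO and 5.55 ± 0.12 in Dcr WT (SD, n = 3 each), a log2 difference of 2.64 (SE 0.39) or 6.25-fold. Leaving out Dcr KO replicate 3 gave a difference of 2.12, and leaving out Dcr KO replicate 1 gave 2.98.

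Serpinb9, whose product inhibits granzyme B and shields cytotoxic cells from it, was read by 2 probe sets that moved the same way. The brighter one (1422601_at) read 7.14, 7.17 and 7.74 in Dcr KO cells, against 6.17, 6.41 and 6.63 in Dcr WT cells, a difference of 0.95. The dimmer one (1439790_at) read 4.16, 4.13 and 4.62 in Dcr KO cells, against 3.19, 2.90 and 3.13 in Dcr WT cells, a difference of 1.23. In both probe sets the groups were separate and Dcr KO replicate 3 was again the highest. Their mean was 5.83 ± 0.31 in Dcr KO and 4.74 ± 0.12 in Dcr WT (SD, n = 3 each), a log2 difference of 1.09 (SE 0.16) or 2.13-fold.

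The Serpinb6 genes did not share one pattern. Serpinb6c, a mouse paralogue of the Serpinb6 group, read 7.30, 7.08 and 7.62 in Dcr KO cells, against 5.22, 5.81 and 6.19 in Dcr WT cells (1451594_s_at). The groups were separate, although the Dcr WT arrays were spread more widely than the Dcr KO arrays. The means of 7.33 ± 0.27 in Dcr KO and 5.74 ± 0.49 in Dcr WT (SD, n = 3 each) differed by 1.59 (SE 0.25), or 3.02-fold. The name of this probe set ends in _s_at, which on these arrays marks probes that can match more than 1 transcript, so a share of its signal may belong to a close paralogue.

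Serpinb6a is the mouse counterpart of the gene for human SERPINB6, an inhibitor of cathepsin G that is needed for hearing. It read 10.65, 10.66 and 10.69 in Dcr KO cells, against 10.56, 10.73 and 10.66 in Dcr WT cells (1450138_a_at). The groups overlapped, and the means of 10.67 ± 0.02 in Dcr KO and 10.65 ± 0.09 in Dcr WT (SD, n = 3 each) lay 0.02 apart (SE 0.095). Serpinb6b, a paralogue that was dim on every array, read 2.38, 2.08 and 1.76 in Dcr KO cells, against 2.06, 2.48 and 2.34 in Dcr WT cells (1422804_at). The groups overlapped here too, and at this level the gene was below the minimum and was not tested.

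Serpinb1a, the counterpart of human SERPINB1, an inhibitor of neutrophil elastase, cathepsin G and proteinase 3, was also below the minimum. One probe set (1416318_at) read 2.78, 2.92 and 2.98 in Dcr KO cells, against 2.39, 2.58 and 2.26 in Dcr WT cells. The other (1448301_s_at) read 2.56, 2.35 and 2.71 in Dcr KO cells, against 2.52, 2.14 and 2.77 in Dcr WT cells. The groups were separate in the first and overlapped in the second, with differences of 0.48 and 0.06.

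Of the non-inhibitory serpins, Serpinf1 had the larger difference. Its brighter probe set (1416168_at) read 7.32, 7.78 and 6.12 in Dcr KO cells, against 4.66, 5.12 and 5.43 in Dcr WT cells, a difference of 2.00 or 4.01-fold. The dimmer probe set (1453724_a_at) read 3.80, 3.95 and 3.21 in Dcr KO cells, against 2.55, 2.51 and 2.85 in Dcr WT cells, a difference of 1.02 or 2.02-fold. The groups were separate in both probe sets, but here Dcr KO replicate 3 was the lowest of its group. The gene averaged 5.36 ± 0.62 in Dcr KO and 3.85 ± 0.27 in Dcr WT (SD, n = 3 each), a log2 difference of 1.51 (SE 0.29). Its Dcr WT mean was under 4, so it reached the minimum over the 6 arrays only through the Dcr KO arrays. It moved to the other side of the limma threshold when Dcr KO replicate 2 was left out (difference 1.26), and likewise without Dcr WT replicate 1 (1.39), 2 (1.49) or 3 (1.65).

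Serpinh1 was read brightly on every array. Its probe set 1450843_a_at read 10.79, 10.67 and 10.90 in Dcr KO cells, against 10.54, 10.26 and 10.26 in Dcr WT cells, and 1456733_x_at read 10.64, 10.58 and 10.69 in Dcr KO cells, against 10.33, 10.48 and 10.04 in Dcr WT cells. The groups were separate in both, by a narrow margin. The gene averaged 10.71 ± 0.09 in Dcr KO and 10.32 ± 0.15 in Dcr WT (SD, n = 3 each), a log2 difference of 0.39 (SE 0.11) or 1.31-fold.

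**Figure D1:**
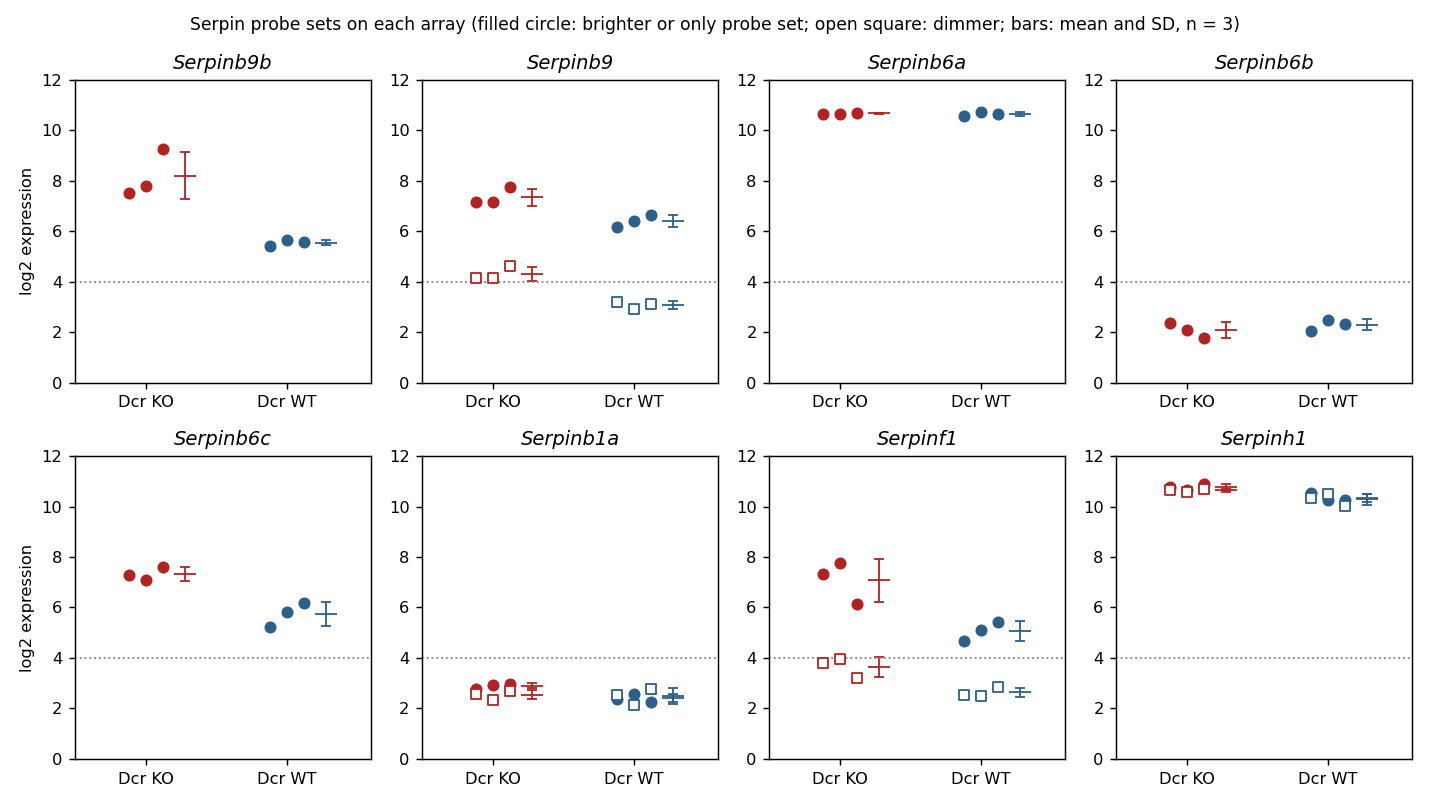
Log2 expression (vertical axis) of each serpin probe set on the 3 Dcr KO arrays (red, left) and the 3 Dcr WT arrays (blue, right), with replicates 1 to 3 running left to right; filled circles are the brighter or only probe set, open squares the dimmer one, bars the mean and SD, and the dotted line the minimum of 4. The groups of Serpinb9b, Serpinb9, Serpinb6c and Serpinf1 do not overlap in any probe set, and Serpinb6a lies at 10.67 in Dcr KO and 10.65 in Dcr WT.

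Of the 8 serpins with a probe set, 6 reached the minimum, and 4 of these 6 (Serpinb9b, Serpinb9, Serpinb6c and Serpinf1) lay past the limma threshold on the higher side, where 6.91% of all genes tested lay, and none lay past it on the lower side, where 6.42% did. Their groups did not overlap in 5 of the 6, with Dcr KO above Dcr WT, as in 17.7% of all genes tested, and 39.0% of all genes tested did not overlap in either direction. Since the list was drawn up from this same comparison, and Serpinf1 was tested only because it was higher in Dcr KO, nothing is read from these counts. The median difference of the 6 genes was 1.30, against -0.02 over all genes tested. Serpinh1 and Serpinb6a did not reach the threshold.

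Most of the rest of the family was too dim to test. Another 32 serpin genes had a probe set, and 30 of them stayed below the minimum: 14 of clade A, 12 of clade B and 4 of other clades, with single array values between 1.12 and 3.21 and differences between -0.20 and 0.54. The highest of these differences belonged to Serpinb1b, a paralogue of Serpinb1a, which read 2.39, 2.82 and 3.05 in Dcr KO cells, against 2.16, 2.36 and 2.13 in Dcr WT cells.

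Serping1, which encodes the C1 inhibitor that holds the complement proteases C1r and C1s and plasma kallikrein in check, was expressed and higher. It read 8.03, 7.72 and 8.0 in Dcr KO cells, against 6.69, 6.75 and 7.20 in Dcr WT cells. The groups were separate, and the means of 7.92 ± 0.17 in Dcr KO and 6.88 ± 0.28 in Dcr WT (SD, n = 3 each) gave a difference of 1.04 (SE 0.16), or 2.05-fold (limma adjusted p = 0.00992 over all genes). The call held under each of the 13 other settings tried, with an adjusted p between 0.00842 and 0.0358. Serpini1, which encodes neuroserpin, an inhibitor of tissue plasminogen activator, overlapped between the groups and did not pass (difference 0.35, SE 0.15, limma adjusted p = 0.161). Its probe sets disagreed, with differences of 0.62, 0.73 and -0.30, and the last was dim throughout. Serpini1 also stood among the study's candidate targets, so a higher value on these arrays was part of how it was picked.

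**Figure D2:**
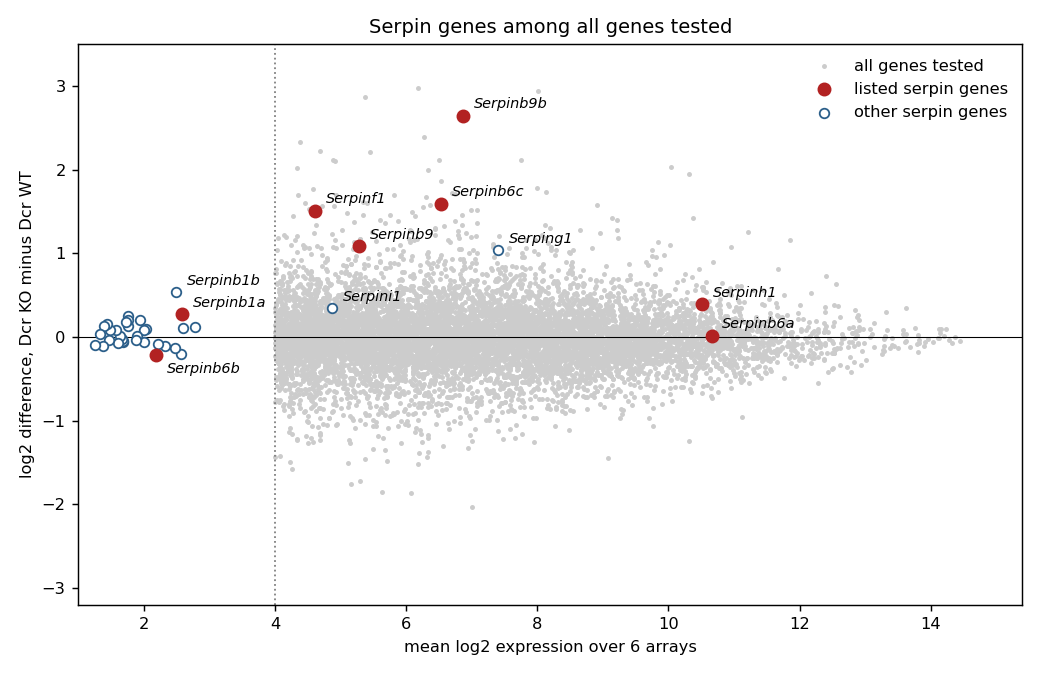
Log2 difference, Dcr KO minus Dcr WT (vertical axis), against mean log2 expression over the 6 arrays (horizontal axis) for the 8782 genes tested (grey), the 8 listed serpins (red) and the 32 other serpin genes (blue circles); the dotted line is the minimum of 4. Serpinb9b at 2.64 is near the upper edge of all genes, whereas 30 of the other serpins sit left of the dotted line.

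The chromosome 13 serpins are neighbours of each other, so their order was compared with their values. The order was that of named protein-coding genes in RefSeq, with Gm, LOC and Rik symbols left out. Serpinb9 and Serpinb9b, which were both higher in Dcr KO cells, are adjacent in this order. Serpinb6c and Serpinb6a are adjacent as well, with a difference of 1.59 in Serpinb6c and 0.02 in Serpinb6a. Between these pairs lie Serpinb1b and further Serpinb9 and Serpinb6 paralogues, and those with a probe set stayed below the minimum in both groups. Just outside the cluster, Wrnip1, a DNA helicase interacting protein, differed by 0.08, and Nqo2, a quinone reductase, by 0.01.

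Of the 20 genes listed on the flanks of the cluster, 18 were on the array and 11 were tested. Tubb2a and Tubb2b, which encode beta tubulins, rose (differences 0.53 and 0.50, limma adjusted p = 0.0309 and 0.0194), Dusp22, a phosphatase, fell by 0.38 on the log2 scale (limma adjusted p = 0.0368), and 8 did not pass. The median of the 11 was 0.08, and 13.3% of all genes tested passed in either direction. These 3 calls were lost with single arrays left out: no gene of the 11 passed once Dcr KO replicate 1 or 2 or Dcr WT replicate 1 was dropped, and 1 passed with Dcr WT replicate 2 or 3 dropped.

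**Figure D3:**
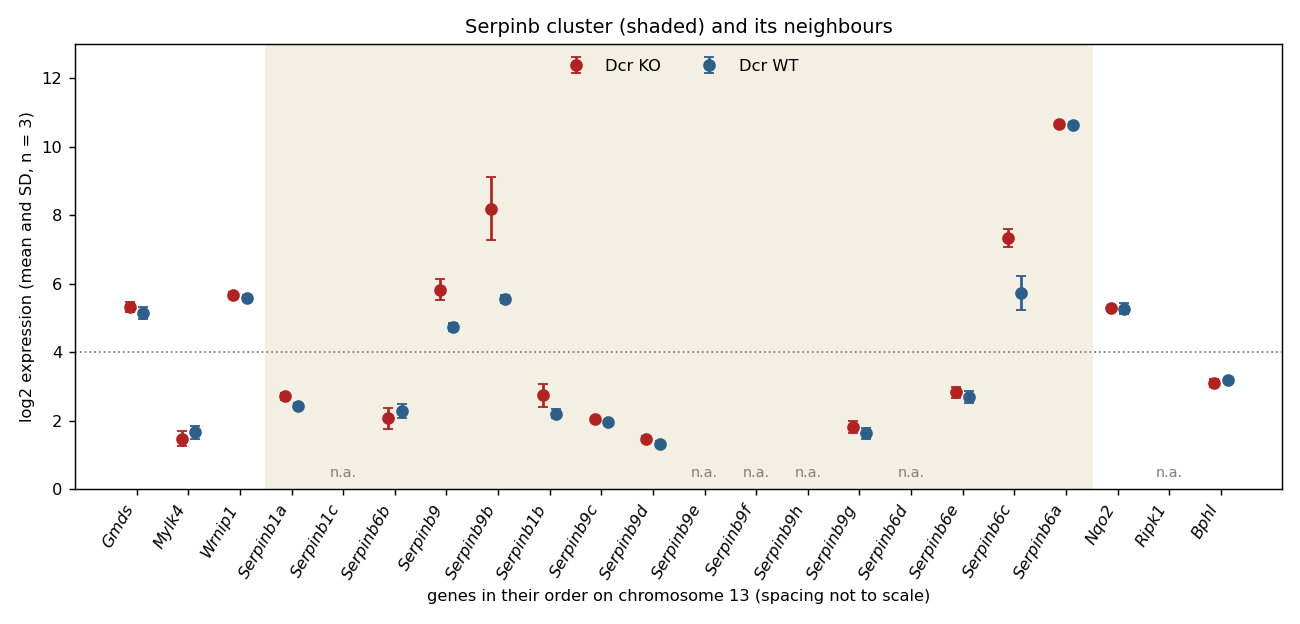
Mean log2 expression with SD (vertical axis, n = 3) in Dcr KO (red, left of each pair) and Dcr WT (blue) is shown. Genes in and beside the Serpinb cluster follow their order among named protein-coding genes of chromosome 13, with the spacing not to scale. The label n.a. marks genes not analysed here, and the dotted line is the minimum of 4. The red and blue points part at Serpinb9, Serpinb9b and Serpinb6c and lie together at Serpinb6a, Wrnip1 and Nqo2.

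Since inhibitory serpins are defined by the proteases they trap, a list of 48 proteases, receptors and cofactors was set beside them. The granzymes, granule proteases that include known targets of Serpinb9 and its relatives, were at the bottom of the scale. They were grouped with perforin, which is not a protease. All 11 genes of this granzyme group, Gzmb included, stayed below the minimum, with array values between 1.02 and 2.62. The 3 neutrophil proteases, targets of Serpinb1a, were not tested either, with array values between 1.49 and 4.17. Of these, Prtn3 averaged 2.74 in Dcr KO and 3.87 in Dcr WT, and its groups did not overlap, while those of Elane and Ctsg did. Of 21 genes of the list that were tested, 3 rose, 1 fell and 17 did not pass, where 6.91% of all genes tested rose and 6.42% fell, and their median was 0.09.

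F3, tissue factor, the receptor that starts clotting, averaged 11.28 ± 0.09 in Dcr KO and 9.33 ± 0.08 in Dcr WT (SD, n = 3 each), a difference of 1.95 (limma adjusted p = 2.02e-04). Htra1, a secreted serine protease, averaged 8.85 ± 0.23 in Dcr KO and 7.55 ± 0.28 in Dcr WT, a difference of 1.30 (limma adjusted p = 0.00597). Sdc2, a heparan sulphate carrying syndecan, differed by 0.52 (limma adjusted p = 0.0338) and did not pass when any 1 of the 6 arrays was left out, with differences between 0.40 and 0.60. Hpn, the membrane protease hepsin, averaged 5.60 ± 0.52 in Dcr KO and 7.04 ± 0.19 in Dcr WT and fell by 1.44 on the log2 scale (limma adjusted p = 0.0127), and without Dcr WT replicate 3 it did not pass (adjusted p = 0.0567). F3, Sdc2 and Tubb2b also stood among the candidate targets that the study picked partly on these arrays, so a higher value here was part of how they were picked.

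Serpinh1 works with the enzymes that modify and fold collagen, and 43 of their genes were listed. Of 39 on the array, 27 were tested, 3 rose, 1 fell and 23 did not pass, and their median was 0.10. With 13.3% of all genes tested passing in either direction, nothing particular to collagen folding is read from this count. Crtap, part of the complex that hydroxylates collagen at single prolines, averaged 10.10 ± 0.05 in Dcr KO and 9.49 ± 0.14 in Dcr WT (SD, n = 3 each), a difference of 0.60 (limma adjusted p = 0.0149). P3h1, the enzyme of the same complex, differed by 0.45 (limma adjusted p = 0.0325), and Pcolce2, an enhancer of procollagen cleavage, by 0.53 (limma adjusted p = 0.0462). P4ha2, a catalytic subunit of prolyl 4-hydroxylase, averaged 6.18 ± 0.25 in Dcr KO and 7.05 ± 0.30 in Dcr WT and fell by 0.87 on the log2 scale (limma adjusted p = 0.0241). None of the 27 passed without Dcr KO replicate 2 or without Dcr WT replicate 3, 1 passed without Dcr KO replicate 3, and 2 passed when either Dcr KO replicate 1 or Dcr WT replicate 1 was dropped.

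The Dcr KO arrays were then compared among themselves. Relative to the Dcr WT mean, Serpinb9b stood 1.98, 2.25 and 3.70 higher on Dcr KO replicates 1, 2 and 3, and Serpinb9 stood 0.91, 0.91 and 1.44 higher. Serpinb6c followed the same order in part, with 1.56, 1.34 and 1.88, whereas Serpinf1 had 1.71, 2.01 and 0.81. Replicate 3 was thus the highest Dcr KO array for Serpinb9b, Serpinb9, Serpinb6c and Serpinh1 and the lowest for Serpinf1. Among the 607 genes that passed on the higher side, replicate 3 was the highest Dcr KO array in 392 genes (64.6%), replicate 1 in 121 (19.9%) and replicate 2 in 94 (15.5%). Dicer1 was lowest on the same array, with -1.28, -1.02 and -1.69 on replicates 1, 2 and 3. The part of this array-wide order in the serpin values was not tested.

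**Figure D4:**
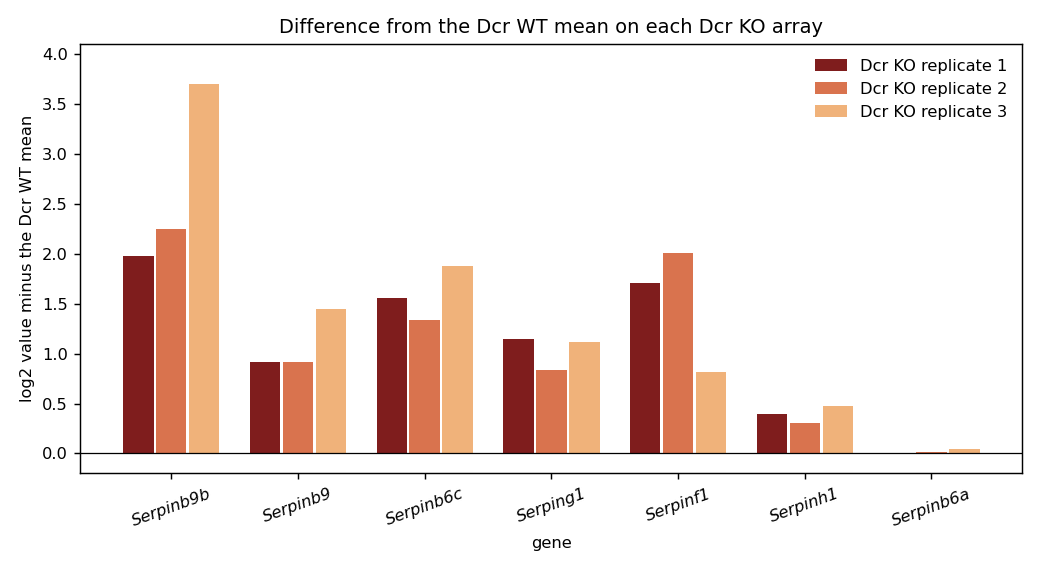
Log2 expression on each Dcr KO array minus the Dcr WT mean (vertical axis) for 6 listed serpins and Serping1, with dark to light bars for Dcr KO replicates 1 to 3. Replicate 3 has the tallest bar for Serpinb9b at 3.70 and the shortest for Serpinf1 at 0.81, and the bars of Serpinb6a are at or near 0.

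The genes most like Serpinb9b over the 6 arrays were named by their Pearson correlation with it, among 8781 other genes and as a description only, since all points share the same arrays and Dcr KO replicate 3 weighs heavily. They were Abca1 (0.998), a cholesterol exporter, Acsbg3 (0.997), Nbea (0.9965), Ifrd1 (0.9951) and Cltb (0.9951), a clathrin light chain. Serpinb9 ranked 27 at 0.9875, Serpinb6c 452 at 0.9262, Serpinh1 731 at 0.8851, Serpinf1 1914 at 0.68 and Serpinb6a 3370 at 0.28. With the group means taken out, the closest genes were Hbegf (0.9968), a growth factor of the EGF family, Cltb (0.9953), Vps26a (0.9935), Ptgs2 (0.9931), a prostaglandin synthase, and Atp6ap2 (0.9909). Serpinb9 then stood at 0.91 and Serpinf1 at -0.82, since Dcr KO replicate 3 was the lowest of its group for Serpinf1 and the highest for Serpinb9b. Abca1, Nbea, Vps26a and Atp6ap2 stood among the candidate targets that the study picked partly for higher values on these arrays.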

How the data were processed

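Per the labels, total RNA was hybridised to 1-colour Affymetrix arrays, and the authors deposited log2 expression values made with GCRMA 2.20.0 in R 2.11.1 for 45037 probe sets and 6 arrays. GCRMA corrects background, normalizes arrays together and summarises probes, so differences shared by most genes are removed and low values are compressed. The study mentions a joint normalization of these samples with long-term deletion lines, and whether the deposited values come from it is not stated. Probe sets with 1 gene symbol (34945) were kept, and those with several (932) or none (9160) were left out. A gene's value was the mean log2 value of its probe sets, after the study's use of geometric means. Genes with a mean of at least 4 over 6 arrays (8782) were tested with lmFit and eBayes of limma 3.58.1 in R 4.3.3, group as the only term, Benjamini-Hochberg adjusted over all of them, at 0.05. The script was tested on simulated data. The number of arrays limits the precision. Alternatives were the probe set rule, the minimum, the normalization, the variance model, a replicate block and leaving out each array.

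The listed serpins and all gene lists were chosen with earlier results of these data known. Genes named were the 9 serpins, other serpins at the minimum, Dicer1, and in each list the 4 genes lowest in adjusted p. The 5 genes most like Serpinb9b by each of 2 measures were named too. Serpinb1b, Wrnip1, Nqo2, Tubb3, Prtn3, Elane, Ctsg and the genes flanking the cluster were named after their values were seen. The authors' own comparisons were not used. Promoter windows were aligned locally with Biopython 1.88.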

Additional observations from a re-analysis of the deposited data

How the results depend on the processing

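The listed serpins carry no test, so their side of the threshold is given only to show how it depends on the processing. Serpinb9b, Serpinb9 and Serpinb6c stayed on the called side under every alternative run for each (13, 12 and 13), with differences of 2.12 to 2.98, 0.91 to 1.18 and 1.33 to 1.82. Serpinf1 did so under 8 of 12, and its difference was 2.00 with the brightest probe set standing for the gene. Serpinh1 was called under 1 of 13, the trend and robust variance model, and Serpinb6a under none, with differences of 0.31 to 0.45 and -0.03 to 0.06. Serpinb6a, which was never called, changed sign under median centring (-0.01) and without Dcr WT replicate 1 (-0.03). No other gene followed by name through the alternatives changed direction. Genes such as Nqo2, Wrnip1 and Tubb3 were not followed in this way.

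The same-numbered arrays did not deviate together (r = -0.22, -0.02 and 0.03 over 8782 genes), and the main fit did not pair them. Whether they were prepared together cannot be told from these values, since differently numbered arrays were not compared in this way. With the replicate block, 354 genes were called higher and 243 lower, against 607 and 564 without it, and 2 collagen folding genes and 0 genes around the cluster were called, against 4 and 3. A minimum of 6 left 404 genes called higher and 2 of the listed serpins called, since fewer genes were tested. Leaving out 1 array gave 220 to 465 genes called higher, 137 to 376 lower, 3 to 4 listed serpins, 2 to 4 proteases, receptors and cofactors (2 without Dcr WT replicate 3), 0 to 4 collagen folding genes and 0 to 2 genes around the cluster; the cause was not tested. Beside the losses given above, Crtap lost its call in 2 settings, P4ha2 in 3, P3h1 in 7, Pcolce2 in 9, Tubb2a in 6, Tubb2b in 4 and Dusp22 in 7, while F3, Htra1, Serping1 and Dicer1 kept theirs in all 13. Dim genes such as Serpinb6b and Serpinb1a lie near the array's background, where a difference may not be detectable.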
